A study of Mus musculus with 10 samples.

Results

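Tat, Hpd, Hgd, Tdo2, Kmo, Hal, Uroc1, Sds and Aass, 9 enzymes that break down amino acids, were followed in whole livers of 10 male mice that had or had not lost the histone variant H3.3 in hepatocytes. The genes were chosen by name from the gene count table, and all 9 were found once among its 55421 gene identifiers and passed the filter on low counts that left 22449 genes for testing. The H3.3 KO group held 4 C57BL/6 mice with floxed H3f3a and H3f3b that received AAV8 Tbg-Cre, a virus that expresses Cre recombinase from the hepatocyte promoter Tbg. The controls were 3 wildtype mice given the same AAV8 Tbg-Cre (WT Cre controls) and 3 floxed mice given AAV8 Tbg-MCS, the vector that lacks Cre (MCS controls). Injection was at 6 months of age, and livers were collected after another 3 weeks. Each group therefore shared virus injection, and each kind of control differed from the KO in either the genotype or the virus. The promoter restricts deletion to hepatocytes, so that other liver cells kept both H3.3 genes. The genotype field of the labels names HIRA for the floxed animals, while the titles name the H3.3 genes, and groups followed the titles.

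The liver is the main site where surplus amino acids are dismantled, and most of the enzymes described here are typical of differentiated hepatocytes. Their carbon enters the citric acid cycle, glucose synthesis or ketone body formation, and their nitrogen goes to the urea cycle. Tyrosine is degraded through Tat (tyrosine aminotransferase), Hpd (hydroxyphenylpyruvate dioxygenase) and Hgd (homogentisate dioxygenase) in that order. Tdo2 (tryptophan dioxygenase) opens the kynurenine pathway, in which Kmo (kynurenine monooxygenase) acts further down. Hal (histidine ammonia-lyase) and Uroc1 (urocanate hydratase) catalyse consecutive steps of histidine breakdown, Sds (serine dehydratase) turns serine into pyruvate, and Aass (aminoadipate-semialdehyde synthase) starts lysine breakdown. Tat is a textbook gene of the response to glucocorticoids, and Sds is known to respond to glucagon and to dietary protein.

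Levels were expressed as CPM (counts scaled to a common library total), adjusted between libraries by the trimmed mean of M values (TMM). Library totals ran from 14998426 counts in KO replicate 1 to 26096141 counts in an MCS control, and the count of an enzyme in a library was never under 1129 or over 50746. The TMM factors were 1.02 to 1.11 in the KO and 0.858 to 1.02 in the controls. The targeted genes were lower in every KO liver than in every control. H3f3a stood at 17.4 ± 1.66 CPM (SD, n = 4) in the KO against 62.1 ± 1.58 CPM (n = 6) in the controls, and H3f3b at 50.5 ± 7.4 against 160.0 ± 24.0 CPM. The control columns could be tied to the 2 kinds of control only through the number in the library names, so every value for 1 kind of control depends on that match. The comparison of the KO with all 6 controls does not.

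All 9 enzymes are protein-coding genes, spread over 7 chromosomes of the mm10 build (GRCm38, GENCODE release M21). Tat lies at chr8:109990437-109999803 on the plus strand, Hpd at chr5:123171807-123182727 on the minus strand and Hgd at chr16:37580153-37632020 on the plus strand. Tdo2 occupies chr3:81957090-81976202 on the minus strand and Kmo chr1:175620381-175662116 on the plus strand. Hal lies at chr10:93488768-93519304 and Uroc1 at chr6:90333284-90364551, both on the plus strand. Sds lies at chr5:120476526-120483932 on the plus strand and Aass at chr6:23072173-23132986 on the minus strand. Exons of Sds share 360 bases with Plbd2 and 141 bases with the antisense gene Gm15690, both on the other strand, and since the strand setting of the counting was not stated, reads there cannot be assigned with certainty. For the other 8 enzymes no exon bases were shared with another annotated gene.

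The 250 bases before the RefSeq start site (GRCm38.p6) were available for 8 of the 9 enzymes, all but Sds, and are shown for 4 of them, as examples from genes that were lower in the KO and whose windows hold at least 1 of the promoter motifs searched. Capitals mark 7 short motifs, searched on both strands, so that a match on the other strand appears as its reverse complement. They are CCAAT (the CCAAT box) and TATAAA (the TATA box), the core TTGCNNAA of C/EBP sites, and the core TGTTTNC of FOXA sites. The others are half-sites of hepatic and hormone-dependent factors, namely GTTAAT for HNF1, CAAAGT for HNF4 and TGTTCT for the glucocorticoid receptor. The windows run 5′ to 3′ on the strand of the gene, at chr8:109990186-109990435 (plus) for Tat, chr16:37579903-37580152 (plus) for Hgd, chr10:93488518-93488767 (plus) for Hal and chr6:23132987-23133236 (minus) for Aass.
Tat: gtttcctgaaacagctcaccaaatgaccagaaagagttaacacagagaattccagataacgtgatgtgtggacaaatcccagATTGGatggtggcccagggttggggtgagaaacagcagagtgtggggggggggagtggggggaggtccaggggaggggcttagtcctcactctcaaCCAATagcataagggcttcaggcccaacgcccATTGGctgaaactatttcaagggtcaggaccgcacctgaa
Hgd: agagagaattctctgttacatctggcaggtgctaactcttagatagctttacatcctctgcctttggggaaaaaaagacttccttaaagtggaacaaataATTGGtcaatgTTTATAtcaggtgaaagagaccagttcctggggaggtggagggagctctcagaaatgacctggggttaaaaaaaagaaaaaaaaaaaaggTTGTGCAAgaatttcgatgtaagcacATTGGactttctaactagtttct
Hal: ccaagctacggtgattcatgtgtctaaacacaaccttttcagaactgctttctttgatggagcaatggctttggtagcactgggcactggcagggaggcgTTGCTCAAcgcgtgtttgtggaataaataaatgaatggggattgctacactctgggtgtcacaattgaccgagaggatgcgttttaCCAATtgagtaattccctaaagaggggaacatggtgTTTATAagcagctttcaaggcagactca
Aass: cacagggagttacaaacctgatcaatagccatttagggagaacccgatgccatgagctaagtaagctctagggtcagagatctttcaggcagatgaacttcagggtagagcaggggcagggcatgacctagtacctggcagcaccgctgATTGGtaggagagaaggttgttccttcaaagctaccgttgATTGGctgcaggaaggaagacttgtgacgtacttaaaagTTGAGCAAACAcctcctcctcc

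CCAAT stood in 6 of the 8 windows (Tat, Hgd, Hal, Aass, Tdo2 and Uroc1) and in 33.8% of the 32851 windows of all RefSeq genes. Tat held it 3 times, the nearest at -40 to -36 before the start. A C/EBP core was found in 3 windows (Hgd, Hal and Aass) against 9.56% of all, and the letters of the TATA box in 3 (Hgd, Hal and Tdo2) against 12.4% of all. The latter lay at -28 to -23 in Hal, but further from the start in Hgd (-139 to -134) and Tdo2 (-229 to -224). A FOXA core stood in 2 windows (Aass and Tdo2) against 17.8% of all. In Aass the C/EBP core at -22 to -15 overlaps the FOXA core at -18 to -12, so they share letters and read as 1 run of capitals. An HNF4 half-site was present in the Kmo window alone, against 12.6% of all. No window of the 8 contained the letters of the HNF1 half-site (6.43% of all) or of the glucocorticoid receptor half-site (16.1% of all). The Hpd window held none of the 7 motifs. These are matches of letters in short windows and were not tested for binding. For Kmo, Tdo2, Hpd and Uroc1 the RefSeq start lies inside the GENCODE gene, by only a few bases in Hpd and Uroc1, so their windows belong to 1 of the possible starts.

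To ask what loss of H3.3 did to these enzymes, the KO was first compared with all 6 controls by edgeR's quasi-likelihood test, with p-values adjusted over the 22449 genes tested by Benjamini-Hochberg. The KO livers had lower levels of 8 of the 9 enzymes (adjusted p under 0.05), while none was higher, and Kmo did not pass. By the same rule 16.6% of all genes tested were lower. These enzymes are abundant transcripts, and among the 1412 genes with a mean of at least 100 CPM the share that was lower was 37.1%. The log2 fold changes ran from -1.94 for Sds to -0.42 for Kmo with a median of -0.92, against a median of -0.21 for the abundant genes and of -0.00299 for all genes. For 4 enzymes (Sds, Tat, Hpd and Aass) the fall exceeded 1 on the log2 scale with an adjusted p under 0.05, and 5.79% of all genes and 9.63% of the abundant genes met both conditions. In 7 enzymes every KO liver was below every control, compared with 12.0% of all genes and 28.8% of the abundant genes.

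**Figure D1:**
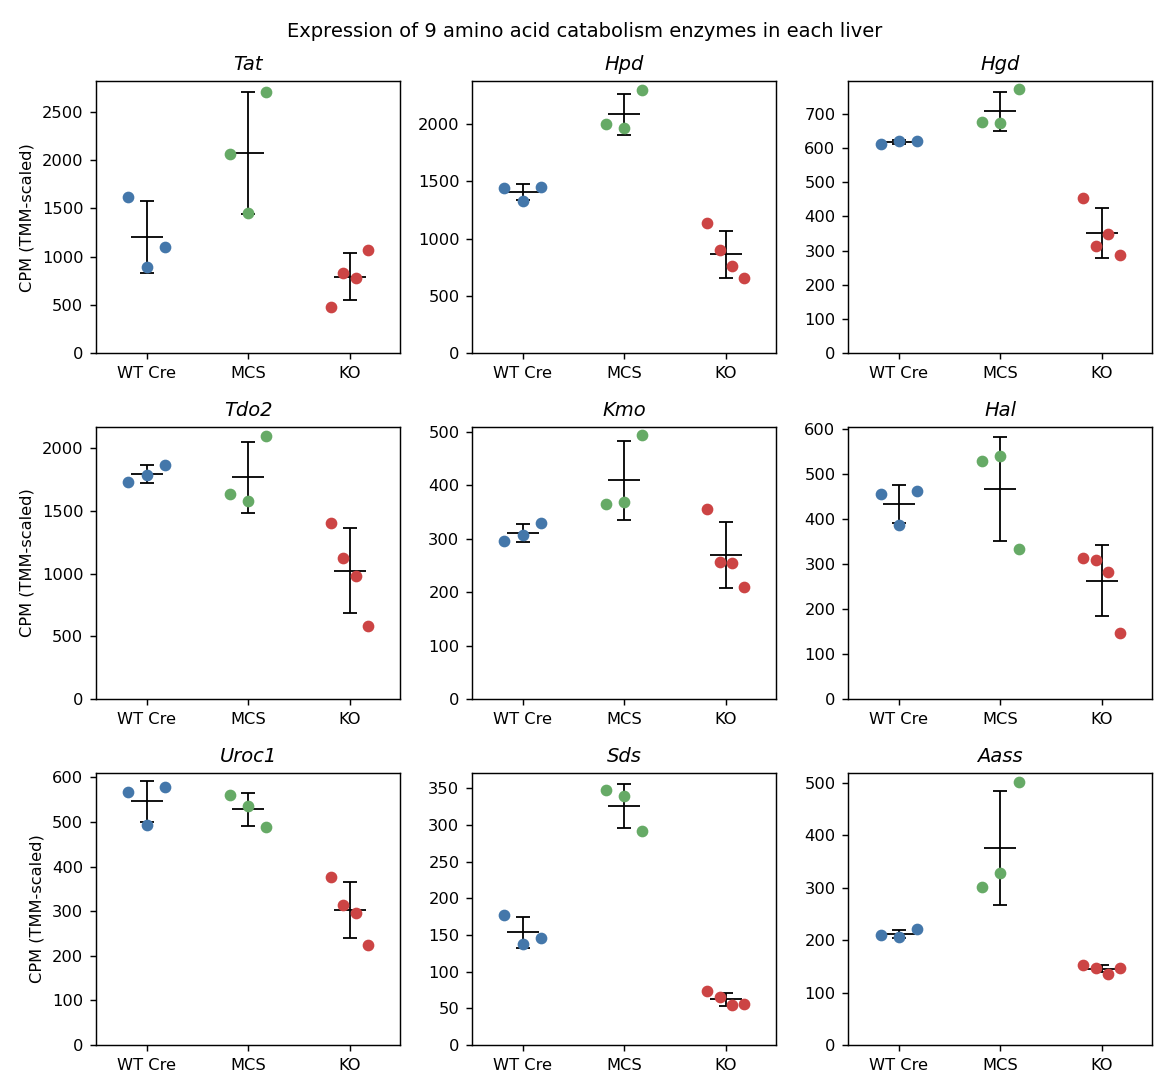
Level of each enzyme in each liver, in CPM on a linear axis that starts at 0, for the WT Cre controls (blue), MCS controls (green) and KO (red). Points are livers in the order of their replicate numbers, horizontal bars are group means and error bars are SD. The KO points lie under all control points for 7 enzymes, and overlap the controls for Tat and Kmo.

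The tyrosine branch was lower at all 3 steps. Tat was measured at 477, 832, 784 and 1069 CPM in KO replicates 1 to 4, against 1615, 891 and 1101 CPM in the WT Cre controls and 2066, 1451 and 2708 CPM in the MCS controls. Its coefficient of variation over the controls was 40.6%, and KO replicate 4 lay above the lowest WT Cre control. The mean was 790 ± 243 CPM in the KO (n = 4) and 1639 ± 665 CPM in the controls (n = 6), with a log2 fold change of -1.05 ± 0.32 (here and below SE; adjusted p = 0.0231). This call was lost under 7 of 18 alternative settings, where the adjusted p reached up to 0.0755, and without KO replicate 1, 2 or 3 it was 0.0640, 0.0507 and 0.0572. Hpd, which forms homogentisate, was found at 1133, 898, 759 and 656 CPM in the KO, 1440, 1327 and 1449 CPM in the WT Cre controls and 1996, 1966 and 2291 CPM in the MCS controls. Both kinds of control were above the KO without overlap, and the log2 fold change was -1.02 ± 0.20 (adjusted p = 0.00136). Hgd, which opens the ring of homogentisate, stood at 455, 314, 348 and 287 CPM in the KO against a narrow range of 612 to 620 CPM in the WT Cre controls and of 671 to 770 CPM in the MCS controls. Its mean in the KO was 53.0% of the control mean (log2 fold change -0.91 ± 0.14, adjusted p = 0.000266).

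In the tryptophan branch the first enzyme was lower and the later one was not called. Tdo2, which commits tryptophan to kynurenine, was measured at 1405, 1125, 984 and 585 CPM in the KO, at 1732, 1786 and 1870 CPM in the WT Cre controls and at 1634, 1584 and 2097 CPM in the MCS controls. No KO liver reached the controls, although KO replicates 1 and 4 differed more from each other than the controls did, and the log2 fold change was -0.80 ± 0.20 (adjusted p = 0.00660). Kmo, an outer mitochondrial membrane enzyme, stood at 356, 256, 255 and 209 CPM in the KO, 296, 307 and 329 CPM in the WT Cre controls and 365, 369 and 495 CPM in the MCS controls. KO replicate 1 was above all WT Cre controls, and the other 3 KO livers were below every control. The log2 fold change of Kmo was -0.42 ± 0.17 (adjusted p = 0.0695), and without KO replicate 1 it was -0.59 with an adjusted p of 0.00910.

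Both histidine enzymes were lower to a similar extent. Hal, which makes urocanate, was found at 313, 309, 283 and 146 CPM in the KO, 454, 385 and 461 CPM in the WT Cre controls and 527, 539 and 334 CPM in the MCS controls. MCS replicate 3 was the lowest control and stood just above the highest KO liver, and the log2 fold change was -0.78 ± 0.21 (adjusted p = 0.0112). Uroc1, which consumes urocanate, was measured at 376, 313, 296 and 225 CPM in the KO and within 488 to 579 CPM in the 6 controls. The groups were well apart, at a log2 fold change of -0.83 ± 0.14 (adjusted p = 0.000476).

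Sds and Aass, which act on serine and lysine, had the smallest coefficients of variation among the KO livers, 14.4% and 4.86%. Sds was found at 73.6, 65.8, 54.2 and 56.1 CPM in the KO, against 178, 137 and 146 CPM in the WT Cre controls and 347, 340 and 292 CPM in the MCS controls. The 3 groups formed 3 separate bands. The KO mean of 62.4 ± 9.01 CPM was 26% of the control mean of 240 ± 97.4 CPM, with a log2 fold change of -1.94 ± 0.30 (adjusted p = 0.000658), and only 1.98% of the abundant genes had a more negative fold change. Aass stood at 153, 147, 136 and 146 CPM in the KO, at 209, 205 and 220 CPM in the WT Cre controls and at 301, 327 and 502 CPM in the MCS controls. Its KO values thus lay close together, while the coefficient of variation over the controls was 38.7%, and the controls again split by kind. The log2 fold change was -1.02 ± 0.24 (adjusted p = 0.00576).

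The KO was then compared with each kind of control in a fit of all 3 groups, to see whether a change holds against the virus control and against the genotype control. Against the MCS controls all 9 enzymes were lower (adjusted p under 0.05, as were 14.8% of all genes and 37.7% of the abundant genes), and against the WT Cre controls 7 were lower (13.1% of all genes and 28.5% of the abundant genes). Tat (log2 fold change -0.61 ± 0.29, adjusted p = 0.15) and Kmo (-0.21 ± 0.17, adjusted p = 0.40) were not called against the WT Cre controls, where their 95% intervals, from the t distribution, reached from -1.25 to 0.04 and from -0.58 to 0.16. Hal was near the threshold there, with -0.72 ± 0.25 and an adjusted p of 0.0490, and lost its call in 13 of 18 alternatives. Against the MCS controls Tdo2 and Kmo lost theirs in 6 alternatives each and Hal in 4. The count against the WT Cre controls fell to 4 when any 1 WT Cre library or KO replicate 3 was left out, when Tdo2, Hal and Aass lost their call.

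**Figure D2:**
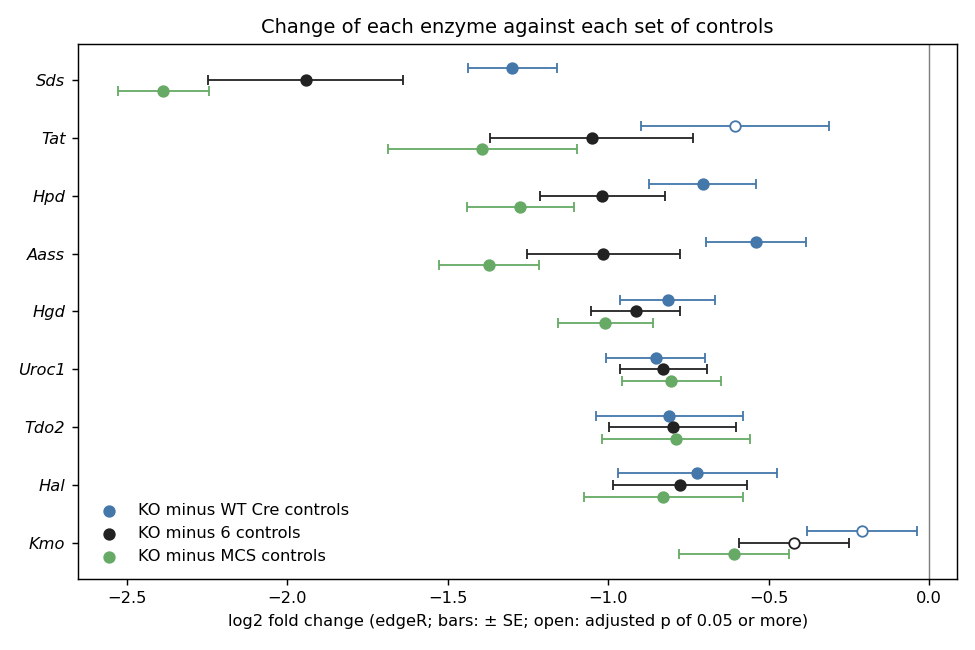
Log2 fold change of each enzyme in the KO against the WT Cre controls (blue), all 6 controls (black) and the MCS controls (green), with bars of 1 SE, and open points where the adjusted p was 0.05 or more. Uroc1, Tdo2 and Hal have nearly the same value in each comparison, whereas the green points of Sds, Aass, Tat and Hpd lie further left than the blue ones.

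The size of the change depended on the control for some enzymes. Sds had a log2 fold change of -1.30 ± 0.14 against the WT Cre controls (adjusted p = 6.32e-05) and of -2.39 ± 0.14 against the MCS controls (adjusted p = 7.21e-07). Aass had -0.54 ± 0.16 (adjusted p = 0.0213) and -1.37 ± 0.16 (adjusted p = 7.62e-05) in these comparisons. The difference between the kinds of control was tested directly, and Sds (log2 fold change of WT Cre over MCS -1.09 ± 0.15, adjusted p = 0.00440) and Aass (-0.83 ± 0.17, adjusted p = 0.0384) were the 2 enzymes called, both lower in the WT Cre controls, where 0.486% of all genes and 1.49% of the abundant genes were called lower. The call of Aass was lost in 9 of 18 alternatives, with an adjusted p of 0.0664 without MCS replicate 3 and of up to 0.162 over the alternatives, while Sds kept its call in all 18. Tat (-0.79 ± 0.32, adjusted p = 0.398) and Hpd (-0.57 ± 0.18, adjusted p = 0.216) were not called between the controls. For Tdo2, Hal and Uroc1 the differences between the controls were 0.02 ± 0.25, -0.11 ± 0.27 and 0.05 ± 0.17, with 95% intervals of -0.52 to 0.56, -0.69 to 0.48 and -0.31 to 0.41. Genotype and virus both differ between the WT Cre and MCS controls, so their parts in these differences cannot be told apart.

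Relative to the mean of the 6 controls, the KO livers had 32% to 79% for Hal, Tdo2 and Uroc1 and 23% to 31% for Sds. KO replicate 1 was the highest KO liver for 8 of the 9 enzymes and the lowest for Tat. KO replicate 4 was the reverse, being lowest for 6 enzymes (Hpd, Hgd, Tdo2, Kmo, Hal and Uroc1) and highest for Tat. KO replicate 1 also had the fewest counts of the 10 libraries. Among the MCS controls replicate 3 was highest for 6 enzymes and lowest for Hal, Uroc1 and Sds, and it was the library with the smallest TMM factor. Without KO replicate 1 the number of enzymes lower in the KO than in the 6 controls was 8, and without MCS replicate 3 it was also 8. Leaving out KO replicate 1 changed the set, however, as Tat lost its call (adjusted p = 0.0640) and Kmo gained one (adjusted p = 0.00910).

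**Figure D3:**
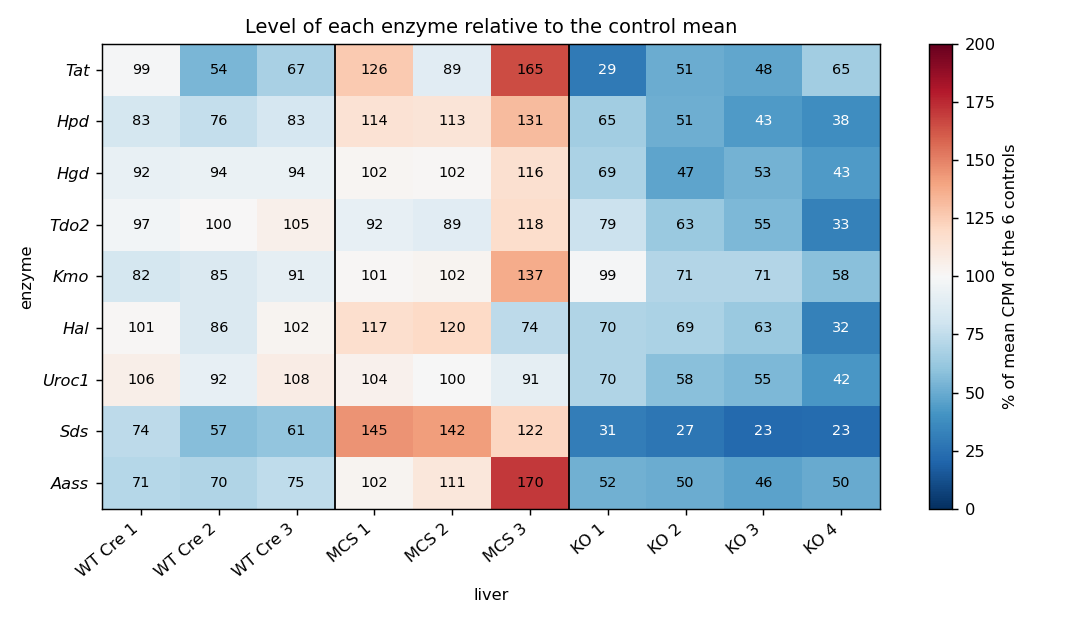
Level of each enzyme (rows) in each liver (columns) as a percentage of the mean CPM of the 6 controls, from blue (below) over white (equal) to red (above). The KO block on the right is blue except for Kmo in KO replicate 1, and the MCS block holds the highest values for Sds, Aass and Tat.

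Between genes, levels can be compared only per transcript length, for which the deposited FPKM values (fragments normalized for transcript length and library depth) were used. In the controls the order was Hpd (981 ± 158 FPKM), Tdo2 (607 ± 64.5), Tat (498 ± 174), Hgd (292 ± 9.80), Sds (184 ± 67.5), Hal (123 ± 24.7), Uroc1 (118 ± 14.1), Kmo (97.2 ± 13.7) and Aass (56.8 ± 17.8). Only Hpd over Tdo2 and Hgd over Sds were neighbours whose ranges did not overlap. In the KO the order began with Hpd (564 ± 114 FPKM), Tdo2 (389 ± 117), Tat (283 ± 95.6) and Hgd (178 ± 32.5), as in the controls. Sds moved from rank 5 in the controls to rank 8 in the KO (54.8 ± 7.24 FPKM), behind Kmo (84.1 ± 16.9), Uroc1 (75.0 ± 13.4) and Hal (68.6 ± 19.7), although its KO range overlapped those of Hal and Uroc1. Aass was the lowest in every group, at 32.5 ± 0.889 FPKM in the KO. Of the counts of a library, the 9 enzymes took 0.437% ± 0.0465 in the KO, 0.667% ± 0.0468 in the WT Cre controls and 0.791% ± 0.0688 in the MCS controls.

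In bulk liver, fewer hepatocytes and less RNA per hepatocyte cannot be told apart. Summed levels of the 8 hepatocyte markers were 118000 to 128500 CPM in the KO and 118800 to 171200 CPM in the controls, and those of the 9 enzymes were 3379 to 4741 and 6152 to 9976 CPM. Alb held most of the marker sum and fell from 96920 ± 12000 to 69200 ± 6270 CPM. Trf rose from 16140 ± 1280 to 38780 ± 4220 CPM, so the sum hides falls of other markers. Alb, Ttr, Apoa1, Fgb and Ass1 were lower in the KO (as were 16.6% of all genes and 37.1% of the abundant genes), Trf was higher (log2 fold change 1.26 ± 0.13) and Apoc3 and Cps1 were not called. Against the WT Cre controls 2 of the 8 were lower (13.1% of all genes and 28.5% of the abundant genes) and 1 was higher (15.3% of all genes). Against the MCS controls 6 were lower (14.8% of all genes and 37.7% of the abundant genes) and 1 was higher (3880 of the 22449 genes tested). At the same time all 10 Kupffer cell markers were higher, with sums of 579 to 1257 CPM in the KO and 248 to 468 CPM in the controls, and all 10 monocyte and macrophage markers were higher, with sums of 105 to 238 and 38.6 to 83.9 CPM. Higher levels were also found for 9 of 10 stellate cell and fibroblast markers (sums of 505 to 811 against 221 to 282 CPM) and 7 of 10 lymphoid markers (23.0 to 64.7 against 11.5 to 16.5 CPM). Of the endothelial markers 3 of 10 were higher (267 to 448 against 236 to 294 CPM), as were 2 of the 9 cholangiocyte markers tested (74.0 to 93.0 against 51.4 to 82.4 CPM). By the same rule 19.7% of all genes were higher in the KO, and the counts of these last 2 lists are near that share. No marker was at 0 in all livers. The part of these marker differences in the lower enzyme levels was not tested.

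The other genes of amino acid catabolism were examined to see how far the pattern extended around the 9 enzymes. Of 51 such genes tested 30 were lower in the KO than in the 6 controls and 3 were higher (Kyat3, Gcat and Crym), with a median log2 fold change of -0.71, against 16.6% lower, 19.7% higher and a median of -0.00299 over all genes. Many of them are abundant, and among the genes with a mean of at least 100 CPM 37.1% were lower, with a median of -0.21. The number lower was 27 to 34 over the 18 alternatives, whereas the number higher was 1 to 8, with 1 left with the replicate block and without WT Cre replicate 1 or 2 or KO replicate 3 or 4. In 28 of the 51 genes every KO liver was below every control, as for 12.0% of all genes and 28.8% of the abundant genes. Against the WT Cre controls 26 were lower (13.1% of all genes and 28.5% of the abundant genes) and 5 higher (15.3% of all genes). Against the MCS controls 33 were lower (14.8% of all genes and 37.7% of the abundant genes) and 1 higher. The median log2 fold changes were -0.616 and -0.742 in these 2 comparisons. Values after "at" are log2 fold changes with their SE, and these and the counts by list are against the 6 controls unless another comparison is named. For phenylalanine and tyrosine 4 of 5 genes were lower, among them Fah, the last step after Hgd (-0.88 ± 0.16, adjusted p = 0.000806), and Gstz1, the isomerase between Hgd and Fah (-0.89 ± 0.18, adjusted p = 0.00201). Pcbd1, which helps to regenerate tetrahydrobiopterin, was lower, at -0.92 ± 0.18 (adjusted p = 0.00161). Branched-chain amino acid breakdown had 12 of 18 genes lower, with Mmut, the methylmalonyl-CoA mutase, falling from 172 ± 14.1 to 63.7 ± 14.7 CPM (log2 fold change -1.43 ± 0.14) and Pccb, a subunit of propionyl-CoA carboxylase, from 165 ± 14.3 to 68.5 ± 23.6 CPM. Acadsb and Aldh6a1, which act earlier, were lower, at -0.89 ± 0.12 and -0.86 ± 0.12.

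The remaining pathways were mixed. In the tryptophan pathway 4 of 8 genes were lower (16.6% of all genes and 37.1% of the abundant genes) and 1 was higher (19.7% of all genes). Ido2, a dioxygenase that acts on the same substrate as Tdo2, fell from 99.2 ± 17.9 to 33.9 ± 5.99 CPM (-1.55 ± 0.16, adjusted p = 1.68e-05). Kynu and Haao, the next steps after Kmo, were lower, at -0.86 ± 0.15 and -0.75 ± 0.17, and Qprt, which carries the path to NAD, at -0.56 ± 0.16 (adjusted p = 0.0143). Qprt was not called against the WT Cre controls (adjusted p = 0.0861), nor against the 6 controls without KO replicate 3 (adjusted p = 0.0568). Kyat3, which diverts kynurenine by transamination, was higher, at 0.46 ± 0.17 (adjusted p = 0.0441). It was not called against the WT Cre controls alone (adjusted p = 0.108) or the MCS controls alone (adjusted p = 0.104). For histidine, Amdhd1, the step after Uroc1, fell from 235 ± 28.4 to 83.8 ± 22.0 CPM (-1.49 ± 0.17, adjusted p = 3.74e-05). Ftcd, the last enzyme of that path, had 479 ± 128 CPM in the KO and 491 ± 81.4 CPM in the controls (-0.04 ± 0.18, adjusted p = 0.899), and the sign of this difference changed under 7 alternatives.

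For lysine, 3 of 6 genes were lower (16.6% of all genes and 37.1% of the abundant genes) and 1 was higher (19.7% of all genes). Gcdh, the glutaryl-CoA dehydrogenase, fell from 527 ± 40.2 to 169 ± 101 CPM (-1.64 ± 0.29, adjusted p = 0.00129) and Aadat, the aminoadipate aminotransferase, from 77.6 ± 15.6 to 24.7 ± 12.6 CPM (-1.66 ± 0.29, adjusted p = 0.00143). Dhtkd1 was lower, at -0.94 ± 0.26 (adjusted p = 0.0170). Dhtkd1 was not called against the WT Cre controls (adjusted p = 0.0703), nor against the 6 controls without KO replicate 3 (adjusted p = 0.0516). Crym, a ketimine reductase, was higher, from 2.07 ± 0.624 to 5.24 ± 0.873 CPM. Of 6 genes of serine, threonine and glycine 4 were lower and 1 was higher, beside the same shares. Agxt, the glyoxylate aminotransferase, was lower, at -1.21 ± 0.26 (adjusted p = 0.00373), Sdsl, a relative of Sds (5.09 ± 0.945 against 10.9 ± 1.72 CPM), at -1.10 ± 0.16, and the glycine cleavage genes Gldc and Gcsh at -0.61 ± 0.10 and -0.55 ± 0.13. In the list of proline, ornithine and alanine 2 of 6 were lower, near the 37.1% of the abundant genes, Prodh at -1.03 ± 0.23 and Prodh2 at -1.27 ± 0.23. The median log2 fold change of this list was 0.046 against the WT Cre controls and -0.702 against the MCS controls. Agxt and Prodh fell less against the WT Cre controls (-0.74 and -0.65) than against the MCS controls (-1.56 and -1.33).

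**Figure D4:**
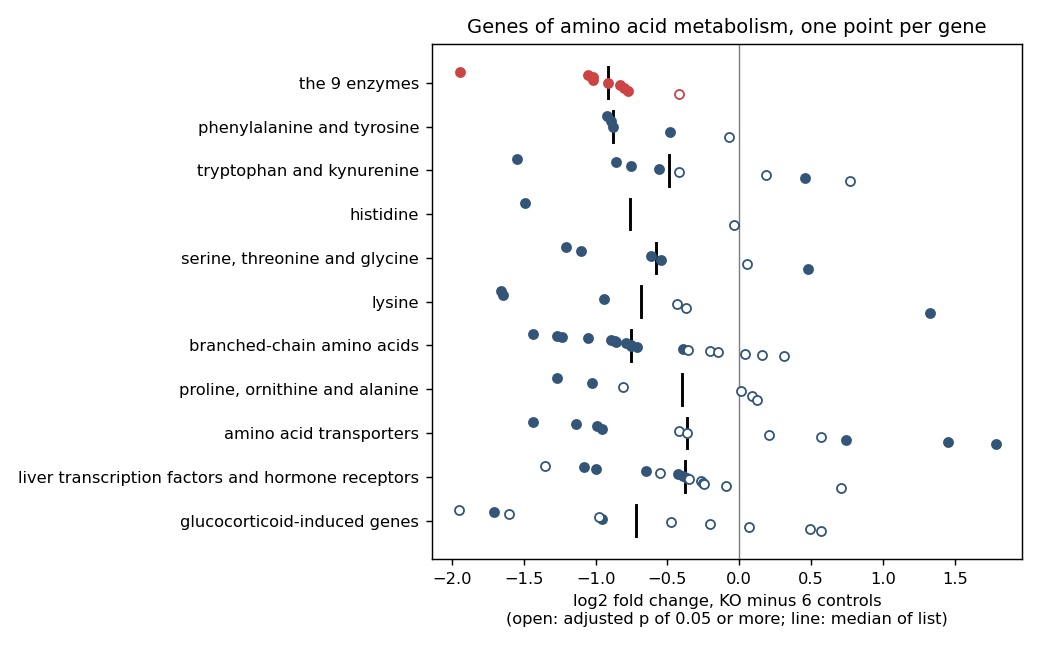
Log2 fold change in the KO against the 6 controls for every tested gene of the 9 enzymes (red) and of the other lists (blue), 1 point per gene, with filled points where the adjusted p was under 0.05 and a black line at the median of each list. All 9 enzymes lie left of 0, and the transporters hold called genes on both sides.

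Amino acid transporters were split, with 4 of 11 lower and 3 higher against 16.6% and 19.7% of all genes. Against the WT Cre controls 4 were also lower and 3 higher (13.1% and 15.3% of all genes), but the genes differed in part. Slc38a2 (adjusted p = 0.1225) and Slc7a5 (adjusted p = 0.0513) were not called there. In their place Slc6a9 was lower (adjusted p = 0.0111) and Slc43a1 higher (adjusted p = 0.00344). Slc7a2, a carrier of cationic amino acids, fell from 498 ± 154 to 184 ± 23.6 CPM (-1.44 ± 0.21) and Slc38a4, a carrier of neutral amino acids, from 1177 ± 176 to 593 ± 40.9 CPM (-0.99 ± 0.13). Slc7a8 rose from 3.89 ± 0.559 to 13.4 ± 4.35 CPM and its heavy chain partner Slc3a2 from 43.2 ± 1.57 to 72.3 ± 20.3 CPM (0.74 ± 0.15, adjusted p = 0.00203). Among 14 liver transcription factors and hormone receptors 6 were lower (16.6% of all genes) and none was higher against the 6 controls. Against the MCS controls 7 were lower (14.8% of all genes) and none was higher. Against the WT Cre controls 5 were lower (13.1% of all genes) and 2 were higher (15.3% of all genes), Foxa3 at 1.29 ± 0.33 (adjusted p = 0.0168) and Cebpb at 0.49 ± 0.16 (adjusted p = 0.0355). The 6 lower genes included Nr3c1, the glucocorticoid receptor (61.2 ± 4.09 to 45.5 ± 5.16 CPM, -0.43 ± 0.10, adjusted p = 0.00368, a call lost in 3 of 18 alternatives), and Gcgr, the glucagon receptor (266 ± 23.9 to 170 ± 40.2 CPM, -0.65 ± 0.15). Foxa2 and the coactivator Ppargc1a fell from 33.5 ± 10.6 to 15.8 ± 2.06 CPM and from 8.18 ± 1.46 to 4.11 ± 0.779 CPM. Of 10 genes that glucocorticoids induce 2 were lower, near the share of 16.6% of all genes, and 8 were not called. The 2 were Pck1 at -0.95 ± 0.26 (adjusted p = 0.0118) and G6pc at -1.71 ± 0.20 (adjusted p = 4.09e-05), which both serve gluconeogenesis. The list depended on the control. Against the MCS controls 4 were lower (14.8% of all genes) and none was higher, with a median log2 fold change of -0.996. Against the WT Cre controls the median was 0.82, with G6pc lower, Fkbp5 higher (1.16 ± 0.33, adjusted p = 0.0271) and Pck1 not called (adjusted p = 0.0610).

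The likeness of patterns over the 10 livers was measured by Pearson's r of log2 CPM, which also reflects the difference between the groups and the library scaling. Between pairs of the 9 enzymes r ran from 0.358 to 0.960 with a median of 0.836 over 36 pairs. Among the 13210 genes with at least 1 CPM on average, the closest to the tyrosine enzymes were Pde4dip, Etnk2 and St3gal5 for Tat (r of 0.961 to 0.976), Serpina1d, Asl and N4bp2 for Hpd (all 0.988) and Cse1l, Rab17 and Mrpl13 for Hgd (0.992 to 0.997). Closest to Tdo2 were Mctp2, Prr16 and Naa35 (0.978 to 0.987) and to Kmo were Adal, Gm19680 and Tufm (0.966 to 0.972). Hal was nearest to Dlg3, 0610005C13Rik and Mug-ps1 (0.981 to 0.986) and Uroc1 to Tprkb, Dnajc28 and Ndrg2 (0.994 to 0.995). For Sds these genes were Fastkd1, Serpinf1 and Gm31583 (0.984 to 0.986), and for Aass Gin1, Arhgap5 and Fga (0.974 to 0.982). None of these nearest genes belonged to the lists of amino acid metabolism used here, which leave out urea cycle genes such as Asl.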

How the data were processed

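RNA-seq of poly(A) RNA from 10 livers was used. Per the methods of the authors, trimmed reads were aligned to mm10 by STAR and counted per gene by HOMER, while the submitters' processing notes name STAR, HTSeq and Cufflinks without their roles. The deposited counts are whole numbers for 55421 gene identifiers without normalization, and the deposited FPKM values were used for levels between genes and as an alternative. Strand setting and handling of reads with several matches are not given in the sources used here.

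Genes with at least 10 counts summed over libraries were tested with edgeR 4.0.16 (R 4.3.3; TMM, robust quasi-likelihood F test, Benjamini-Hochberg over 22449 genes). KO against 6 controls was fitted with 2 groups and the other contrasts with 3 groups. SE is the absolute log2 fold change over the square root of F, 95% intervals use the t distribution with the residual degrees of freedom of the gene, and a gene was called at an adjusted p under 0.05. The code was tested on simulated data. CPM is TMM-scaled. Groups came from the titles. KO columns carry the replicate number of the title, and control columns 1 to 6 were matched by the number in the library names. Totals of 14998426 to 26096141 counts set the precision, and every enzyme had at least 1129 counts in each library.

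The 9 enzymes, the gene lists and the tests were chosen with earlier results of these data known. All 9 enzymes were named, with at most 4 called genes of smallest p per list (or the 2 most abundant where fewer than 2 were called), and the other names serve to identify counts. Some listed genes are not reported here by name. Tdh failed the filter on low counts, Gcat has 2 identifiers, of which the one with more counts was used, and Mut was read as Mmut. Alternatives were DESeq2 1.42.0, other scalings and filters, limma 3.58.1 on log2(FPKM + 1) and log2(FPKM + 0.1), the replicate number as a block, and leaving out each library.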

Additional observations from a re-analysis of the deposited data

Results flagged for a closer look

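Kmo in the controls had 1 library far from the others, MCS replicate 3 at 494.5 CPM, while the other 5 controls lay at 369 CPM or below. With 18 groups of enzyme levels examined in this way, about 1 in 20 is expected to stand out by chance. Without that library the log2 fold change of Kmo against the MCS controls was -0.45 with an adjusted p of 0.0816.

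The change of Sds in the KO differed with the kind of control, by -1.09 on the log2 scale between the comparison with the MCS controls and that with the WT Cre controls, as the fit of WT Cre against MCS controls tested (edgeR adjusted p = 0.00440). All 3 WT Cre controls were below all 3 MCS controls.

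The change of Aass differed in the same direction by -0.832 (edgeR adjusted p = 0.0384), again with all 3 WT Cre controls below all 3 MCS controls.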

How the results depend on the processing

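In each of 18 alternatives all 9 enzymes stayed lower in the KO than in the 6 controls, the WT Cre controls and the MCS controls. The number called against the 6 controls was 7 to 8, against the MCS controls 6 to 9, and of the other catabolic genes 28 to 37 were called, 27 to 34 lower and 1 to 8 higher. The number higher, 3 in the reported fit, was 8 with library size only, 6 with either FPKM pseudocount and 1 with the replicate block and without WT Cre replicate 1, WT Cre replicate 2, KO replicate 3 or KO replicate 4. Against the WT Cre controls leaving out 1 library gave 4 to 7. Between the WT Cre and MCS controls 1 was called with limma on log2(FPKM + 1) and also 1 with log2(FPKM + 0.1), and leaving out 1 library gave 1 to 3. Scaling by library size only put the all-gene median at 0.172 on the log2 scale and the calls from 4429 higher and 3726 lower to 5635 higher and 2172 lower. Under it Sds stood at -1.75 and Kmo at -0.24 against the 6 controls.

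Differences near 0 changed sign. Between the WT Cre and MCS controls, Tdo2 went to -0.0033 without WT Cre replicate 3, -0.0361 without MCS replicate 1 and -0.0553 without MCS replicate 2, with a highest leave-one-out value of 0.159. Hal went to 0.0212 with library size only and 0.0096 without MCS replicate 2 (lowest -0.299), and Uroc1 to -0.0039 without MCS replicate 3 (highest 0.117). Ftcd in the KO went to 0.133 with library size only, 0.139 with either FPKM pseudocount, 0.131 with the replicate block and 0.0377, 0.0122 and 0.132 without MCS replicate 1, MCS replicate 2 and KO replicate 4 (lowest -0.166). The cause was not tested.

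The titles share replicate numbers 1 to 3 between groups. Deviations from the group means of same-numbered livers correlated at -0.0387 to 0.111, so the numbers were not taken to pair the livers. With the replicate block 7 enzymes were called against the 6 controls, 7 against the WT Cre controls, 9 against the MCS controls and 2 between the controls, as well as 29 of the other catabolic genes.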
